A study of Homo sapiens with 6 samples.

Results

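The genes described here encode the lysosomal platform that recruits mTORC1 when amino acids are plentiful: the 4 Rag GTPases (RRAGA, RRAGB, RRAGC and RRAGD), the 5 subunits of Ragulator (LAMTOR1 to LAMTOR5) and folliculin (FLCN). They were taken by name, after matching Ensembl identifiers to gene symbols, and all 10 were found among the 60930 features of the expression matrix. The samples came from xenografts of MDA-MB-231, which is a triple-negative breast cancer line of human origin and which the labels give as wild-type epithelial cells. The cells had been injected into the fourth mammary fat pad of female NSG mice, a strain without mature T, B and NK cells that keeps its own stroma and myeloid cells. One group of samples was tumor core (TC, 3 samples) and the other tumor margin (TM, 3 samples), with no drug or engineered allele in either group. The labels do not say whether a core and a margin with the same number came from 1 mouse. Each group came from 3 mice, which were 6 to 8 weeks old when obtained. The study asked how Rag GTPases and mTORC1 are regulated in the nutrient-poor core, and it examined the transcription factor SP1 in connection with the Rag genes.

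Rag GTPases work as heterodimers, in which RagA or RagB pairs with RagC or RagD. Ragulator is a pentamer that holds the dimer on the lysosomal surface: LAMTOR1 is the lipid-anchored scaffold that wraps around the other subunits, and those 4 subunits, small roadblock-fold proteins, form the pairs LAMTOR2 with LAMTOR3 and LAMTOR4 with LAMTOR5. When amino acids are present, the dimer binds RAPTOR and brings mTORC1 to the GTPase RHEB, its activator. Folliculin, the product of the Birt-Hogg-Dubé tumor suppressor gene, acts with FNIP1 or FNIP2 as the GTPase-activating protein for RagC and RagD, and through them controls the phosphorylation of the transcription factors TFEB and TFE3. All of these steps act on proteins, so the RNA levels given here are amounts of transcript and not activities.

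Values are TPM, a transcript abundance that is corrected for length and sums to 1000000 in 5 of the samples and to 994381 in TM replicate 3. TPM keeps no record of read number, so the sequencing depth is unknown and no counting interval can be given. Fold changes are differences of log2(TPM + 1), TC minus TM, which understate the change of low genes. They were tested with limma across 13861 genes that reached 1 TPM in at least 3 samples, a filter that all 10 genes passed. Over those genes, 19 (0.137%) passed an adjusted p of 0.05, the median difference was -0.14, and 33.0% had a higher mean in TC. Median-of-ratios rescaling, which divides each sample by the median of its gene ratios to a common reference, moved that median to 0.02. The 5 markers taken for MDA-MB-231 summed to between 4428 and 5883 TPM, most of it from VIM (3797 to 5283 TPM), so the sum mainly reports that 1 gene. Of the receptors absent from triple-negative tumors, ESR1 and PGR were at or under 0.22 TPM. ERBB2, the third receptor by which such tumors are classed, was at 22.3 to 24.1 TPM in TC and at 30.8 to 40.7 TPM in TM. Every TC sample was below every TM sample, as in 18.9% of all tested genes (log2 difference -0.59, limma adjusted p = 0.128). Transcripts of skeletal muscle markers (13 of 14 found) summed to between 8.10 and 11.7 TPM in TC and to 262, 649 and 5.19 TPM in TM replicates 1, 2 and 3. The 9 fibroblast markers summed to between 65.8 and 225 TPM in TC and to 477, 1005 and 91.0 TPM in TM. Most of that sum came from COL1A1 (44.7 to 698 TPM) and COL1A2 (15.3 to 218 TPM), so it mainly reports collagen. LUM, PDGFRA and THY1 were at or under 0.38 TPM, and DCN was at 0 except in TM replicate 1 (4.82 TPM). In tissue pieces such as these, fewer cells of a type and less RNA per cell cannot be told apart. The host was a mouse, and no step that separates mouse from human reads was described. How much of the muscle and fibroblast sums came from mouse reads placed on human genes was not tested.

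Promoters were examined because the question of SP1 concerns the DNA upstream of these genes. RefSeq (GRCh38.p14) gave entries for 8 of the 10 genes, in 10 windows of the 250 bases before the annotated start. RRAGA and RRAGD had no entry. A GC box, the core of the SP1 recognition sequence, was searched as GGGCGG on both strands (CCGCCC on the other strand). An E-box, searched as CACGTG, is its own reverse complement and is the core of the sequence read by TFEB, TFE3 and MITF. The 2 motifs can share at most 1 end base, and GC boxes that overlap each other were counted separately. A GC box was present in 7 of the 8 genes, against 42.6% of 35116 RefSeq promoters of that length, and CACGTG in 4 of the 8 (RRAGB, RRAGC, LAMTOR1 and LAMTOR4), against 6.34%. The units differ: LAMTOR3 and LAMTOR5 had 2 windows each and counted if either held the motif, whereas the percentages count single windows. The windows of these genes were 52.4% to 73.6% GC, and the comparison was matched neither for GC content nor for expression. RRAGC and LAMTOR1 each held 4 GC boxes, while both LAMTOR5 windows held neither motif. A match is a run of letters and not evidence of binding. The windows of 1 Rag gene, 1 Ragulator gene and FLCN are shown 5′ to 3′ on the strand of the gene, with GC boxes and CACGTG in capitals. They span chrX:55717499-55717748 (plus strand) for RRAGB, chr7:100148668-100148917 (plus strand) for LAMTOR4 and chr17:17237169-17237418 (minus strand) for FLCN.
RRAGB: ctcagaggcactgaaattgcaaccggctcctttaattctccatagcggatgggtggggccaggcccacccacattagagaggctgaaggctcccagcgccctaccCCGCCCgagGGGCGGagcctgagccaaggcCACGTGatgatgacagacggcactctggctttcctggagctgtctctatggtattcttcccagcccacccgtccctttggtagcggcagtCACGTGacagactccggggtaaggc
LAMTOR4: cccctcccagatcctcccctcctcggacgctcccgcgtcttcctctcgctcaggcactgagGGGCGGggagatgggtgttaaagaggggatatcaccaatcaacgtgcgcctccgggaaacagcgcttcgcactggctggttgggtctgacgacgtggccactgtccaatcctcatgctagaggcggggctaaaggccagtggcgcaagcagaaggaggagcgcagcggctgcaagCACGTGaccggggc
FLCN: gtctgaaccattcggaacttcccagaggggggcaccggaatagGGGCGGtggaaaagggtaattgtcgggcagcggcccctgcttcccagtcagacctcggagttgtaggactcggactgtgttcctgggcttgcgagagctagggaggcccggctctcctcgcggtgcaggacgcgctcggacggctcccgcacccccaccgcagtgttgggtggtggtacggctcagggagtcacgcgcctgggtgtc
The RRAGB window held 2 GC boxes and 2 E-boxes, the LAMTOR4 window 1 of each, and the FLCN window 1 GC box and no E-box. The LAMTOR4 E-box started 14 bases before the RefSeq start. GENCODE places the start of each of these genes inside its window, so distances depend on the annotation. SP1 itself was measured at 18.27, 13.61 and 10.00 TPM in TC and at 18.34, 15.76 and 15.78 TPM in TM, ranges that overlap (log2 difference -0.27, SE 0.23, limma adjusted p = 0.628).

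The 10 genes spanned a wide range of levels. On the TPM scale, averaged over the 6 samples, LAMTOR5 stood at 428 TPM and LAMTOR4 at 139 TPM, followed by LAMTOR1 (94.4), LAMTOR2 (92.1) and RRAGA (87.0), and then by FLCN (19.5), RRAGC (18.7), LAMTOR3 (13.6), RRAGB (13.4) and RRAGD (8.49). LAMTOR5 was above LAMTOR4 in 6 of 6 samples, and LAMTOR4 above LAMTOR1 in every sample. LAMTOR1, LAMTOR2 and RRAGA had overlapping ranges and were not separable, and the same held for each neighboring pair from FLCN down to RRAGD. RRAGA was above FLCN in 6 of 6 samples with no overlap of their ranges. Thus 4 of the 5 Ragulator genes lay in the upper group and 3 of the 4 Rag genes in the lower one, with RRAGA and LAMTOR3 as the exceptions. The place of FLCN in this order was 8 among TC means and 6 among TM means.

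**Figure D1:**
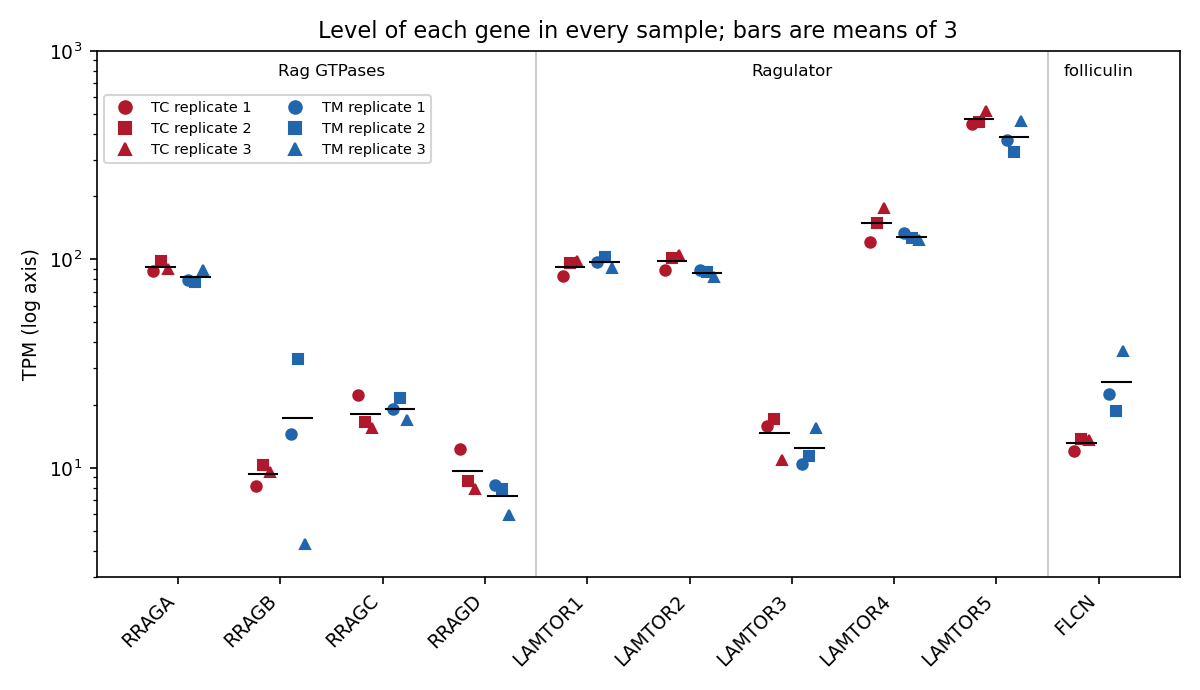
TPM of each gene on a log axis, with TC samples in red, TM samples in blue, marker shape giving the replicate number and black bars the mean of 3. LAMTOR5 is highest throughout (328 to 512 TPM), RRAGB spreads from 4.30 to 33.3 TPM within TM, and the 3 TC values of FLCN lie below its 3 TM values.

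No member passed the adjusted threshold between TC and TM (0 of 10, against 0.137% of all tested genes), and the smallest limma adjusted p among them was 0.141. At an unadjusted p under 0.05, 1 of 10 passed: FLCN, lower in TC, a call that 14.2% of all tested genes share (1.93% were called higher). Of the 10, 6 had a higher and 4 a lower mean log2 value in TC (33.0% of all tested genes were higher), with a median difference of 0.18. RRAGA, RRAGD, LAMTOR2, LAMTOR4 and LAMTOR5 had a higher TC mean under all 19 settings tried. FLCN had a lower one under all 19, whereas LAMTOR3 was lower under 2 of them. Settings that change only the filter, the replicate block or the variance model cannot move a difference, so they add nothing to these counts. The other settings reuse the same samples. Values of TC and TM did not overlap for 2 members: LAMTOR2, with every TC sample above every TM sample (3.28% of all genes), and FLCN, with every TC sample below (18.9% of all genes).

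FLCN had the widest separation of the groups. It was measured at 12.07, 13.75 and 13.52 TPM in TC, and at 22.59, 18.64 and 36.38 TPM in TM. The TC values were close to each other (13.1 ± 0.911 TPM, SD, n = 3), and the TM values were all higher but scattered (25.9 ± 9.31 TPM, n = 3), with TM replicate 3 the highest. The TC mean was 0.507 of the TM mean, and the log2 difference was -0.88 (SE 0.25, 95% interval -1.44 to -0.31), with a limma adjusted p = 0.141. That difference lay below the all-gene median of -0.14, and after median-of-ratios rescaling it was -0.71 (adjusted p = 0.322 by limma), still under the unadjusted threshold of 0.05 that 7.65% of all genes passed downward in that scaling. Leaving out 1 sample at a time gave -1.08 (without TM replicate 2) to -0.61 (without TM replicate 3), each under an unadjusted p of 0.05. TM replicate 3, where FLCN was highest, was the margin sample with the fewest muscle and fibroblast marker transcripts. When TM replicates 1 and 2, which held most of those transcripts, were both set aside, a choice made after the data had been seen, the difference was -1.41 (limma adjusted p = 0.0428). That fit keeps as its 1 margin sample the one where FLCN was highest, so a larger difference was fixed by the choice, and 195 genes passed in it. The FLCN gene lies at chr17:17212212-17237188 on the minus strand (GRCh38, GENCODE release 29), with 10 annotated transcripts.

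The genes whose profile over the 6 samples was nearest to that of FLCN were TMEM147-AS1, BAIAP3 and DENND4B. Likeness was the root mean square difference of centered log2(TPM + 1) values, which was 0.051, 0.096 and 0.11 for these genes, while the FLCN profile itself had a root mean square of 0.52. DENND4B, which encodes an exchange factor for the GTPase RAB10, was measured at 10.63, 10.40 and 10.15 TPM in TC and at 21.15, 15.74 and 31.53 TPM in TM. These neighbors describe 6 points that share 2 groups and the same libraries. FNIP1 and FNIP2, the obligate partners of folliculin, were low and did not separate the groups. FNIP1 ranged from 3.06 to 5.73 TPM and FNIP2 from 1.65 to 3.85 TPM, with log2 differences of -0.11 and -0.17 on the TPM scale, against 0.059 and 0.018 after quantile normalization.

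Among the Rag GTPases, RRAGA was the most abundant and the steadiest. It was measured at 88.32, 98.07 and 89.33 TPM in TC and at 79.50, 77.87 and 88.85 TPM in TM. The groups touched only where TM replicate 3 came above TC replicate 1, and the log2 difference was 0.16 (SE 0.12, 95% interval -0.12 to 0.44, limma adjusted p = 0.588). It was positive under all 19 settings, several of which cannot change it, and ranged from 0.047 to 0.34. An unadjusted p of 0.05 was passed in 0 of them. RRAGA (chr9:19049395-19050983, plus strand) has 1 annotated transcript, of 1589 bases.

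RRAGB, its paralogue, varied more than any other member, and it did so in the margin. TC values were 8.19, 10.27 and 9.58 TPM, and TM values were 14.52, 33.30 and 4.30 TPM, so TM held both the highest and the lowest of the 6. The coefficient of variation was 11.3% in TC and 84.7% in TM. The log2 difference was -0.45 (SE 0.57, 95% interval -1.76 to 0.86, limma adjusted p = 0.764) and its sign was set by single margin samples: it was 0.18 once TM replicate 2 was left out, -1.16 once TM replicate 3 was left out, and 0.96 with TM replicates 1 and 2 both set aside. The order of RRAGB across the margin was replicate 2, then 1, then 3. The muscle marker sums (649, 262 and 5.19 TPM) and the fibroblast marker sums (1005, 477 and 91.0 TPM) had the same order. Sums of 5 endothelium markers (6.78, 5.30 and 3.79 TPM in TM replicates 1, 2 and 3) and 6 macrophage markers (109, 108 and 102 TPM) put replicate 1 first. Within TC, RRAGB followed neither the muscle sums (9.08, 11.7 and 8.10 TPM in replicates 1, 2 and 3) nor the fibroblast sums (65.8, 124 and 225 TPM). The part of host or stromal transcripts in the RRAGB values was not tested. The 3 nearest profiles to RRAGB (root mean square of its own profile 0.82) all belonged to genes with pseudogene symbols: EEF1A1P12 at 0.0996, CFL1P4 at 0.19 and VDAC2P5 at 0.20. EEF1A1P12 was measured at 2.20, 3.18 and 3.55 TPM in TC and at 4.90, 13.11 and 1.10 TPM in TM. The longest run of identical bases between annotated RRAGA and RRAGB transcripts was 32 bases, well under the 150-base reads.

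RRAGC and RRAGD, the partners acted on by folliculin, were both low. RRAGC was measured at 22.39, 16.53 and 15.47 TPM in TC and at 19.16, 21.64 and 16.89 TPM in TM. Its groups overlapped, with the highest and the lowest value both in TC, and the log2 difference of -0.091 (SE 0.19, limma adjusted p = 0.870) became 0.079 after median-of-ratios rescaling and 0.12 after quantile normalization. RRAGD was measured at 12.34, 8.68 and 7.88 TPM in TC and at 8.26, 7.87 and 5.91 TPM in TM. TC replicate 1 was the highest and TM replicate 3 the lowest, and the ranges overlapped (log2 difference 0.34, SE 0.24, 95% interval -0.20 to 0.88, limma adjusted p = 0.552). It was 0.16 when TC replicate 1 was dropped and 0.21 when TM replicate 3 was dropped. The RRAGD difference was 0.50 after median-of-ratios rescaling (adjusted p = 0.333 by limma), which passed the unadjusted threshold of 0.05 as 5.76% of all genes did upward. RRAGD passed that threshold in 2 of the 19 settings.

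Neither gene alone separated core from margin, and their balance is given as a description. RRAGC made up 64.5%, 65.6% and 66.3% of the summed TPM of RRAGC and RRAGD in the 3 TC samples, and 69.9%, 73.3% and 74.1% in the 3 TM samples. All TC shares lay below all TM shares (65.4% ± 0.900 against 72.4% ± 2.24, SD, n = 3 each), a difference of -7.00 percentage points that ranged from -8.27 to -6.17 when 1 sample at a time was left out. A share within a sample does not depend on how the samples are scaled. For RRAGA among RRAGA and RRAGB, the shares were 91.5%, 90.5% and 90.3% in TC and 84.6%, 70.0% and 95.4% in TM, with TM on both sides of TC. No test was made of these shares, which were 2 of 7 computed. The summed TPM of the 4 Rag genes stayed in a narrow band, between 122 and 134 in TC and between 116 and 141 in TM.

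The small Ragulator subunits had higher TC means on the TPM scale, each by a margin near the spread between replicates. LAMTOR2, which pairs with LAMTOR3, was measured at 88.98, 101.11 and 104.75 TPM in TC and at 88.56, 87.21 and 81.91 TPM in TM. TC replicate 1 exceeded the highest TM sample only slightly, and the log2 difference was 0.19 (SE 0.12, 95% interval -0.092 to 0.47, limma adjusted p = 0.517). LAMTOR3, a scaffold also known for binding MEK1, was the scarce subunit, at 15.90, 17.22 and 10.85 TPM in TC and at 10.44, 11.39 and 15.59 TPM in TM. TC replicate 3 and TM replicate 3 each stood apart from the other two samples of their group, in opposite directions. The log2 difference of LAMTOR3 was 0.21 (SE 0.24, limma adjusted p = 0.728), it ranged from 0.090 (TC replicate 2 dropped) to 0.40 (TC replicate 3 dropped), and it was -0.026 once a trend over transcript length and GC content was removed.

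LAMTOR4 was measured at 121.21, 149.74 and 176.92 TPM in TC and at 133.85, 127.15 and 123.09 TPM in TM. The TM samples were tight (128 ± 5.43 TPM, SD, n = 3) and the TC samples spread on both sides of them (149 ± 27.9 TPM), and the groups differed by 0.20 on the log2 scale (SE 0.15, limma adjusted p = 0.589). This LAMTOR4 value fell to 0.074 with TC replicate 3 dropped and reached 0.34 with TC replicate 1 dropped. LAMTOR5, the partner of LAMTOR4 and also known as HBXIP, was measured at 444.05, 454.70 and 511.64 TPM in TC and at 372.40, 328.17 and 458.47 TPM in TM. TM replicate 3 reached into the TC range while the other two margin samples lay below it. The LAMTOR5 difference was 0.29 (SE 0.15, 95% interval -0.047 to 0.63, limma adjusted p = 0.394), and single margin samples moved it: it was 0.42 when TM replicate 3 was dropped (limma adjusted p = 0.140), 0.18 when TM replicate 2 was dropped, and 0.033 with TM replicates 1 and 2 both set aside.

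LAMTOR1, the scaffold that anchors the complex, did not share the sign of the small subunits on the TPM scale. It was measured at 83.15, 95.69 and 97.66 TPM in TC and at 97.06, 102.28 and 90.82 TPM in TM, with overlapping ranges. The log2 difference was -0.071 (SE 0.13, 95% interval -0.36 to 0.22, limma adjusted p = 0.839) and turned to 0.11 with median-of-ratios rescaling, 0.0069 with quantile normalization and 0.019 with the length and GC trend removed. Within the complex, LAMTOR1 made up 11.0%, 11.7% and 10.8% of the summed TPM of the 5 genes in TC and 13.8%, 15.6% and 11.8% in TM. Every TC share was below every TM share, the nearest pair being 11.7% and 11.8%. LAMTOR5 made up 58.9%, 55.6% and 56.7% in TC and 53.0%, 50.0% and 59.6% in TM, shares that overlap. LAMTOR2, LAMTOR3 and LAMTOR4 differed by at most 0.25 percentage points between the group means of their shares, less than their SDs. RRAGC and LAMTOR1 were thus 2 of 7 shares computed with every TC value below every TM value, a pattern that 18.9% of all genes show in their TPM values; no such percentage was computed for shares.

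**Figure D2:**
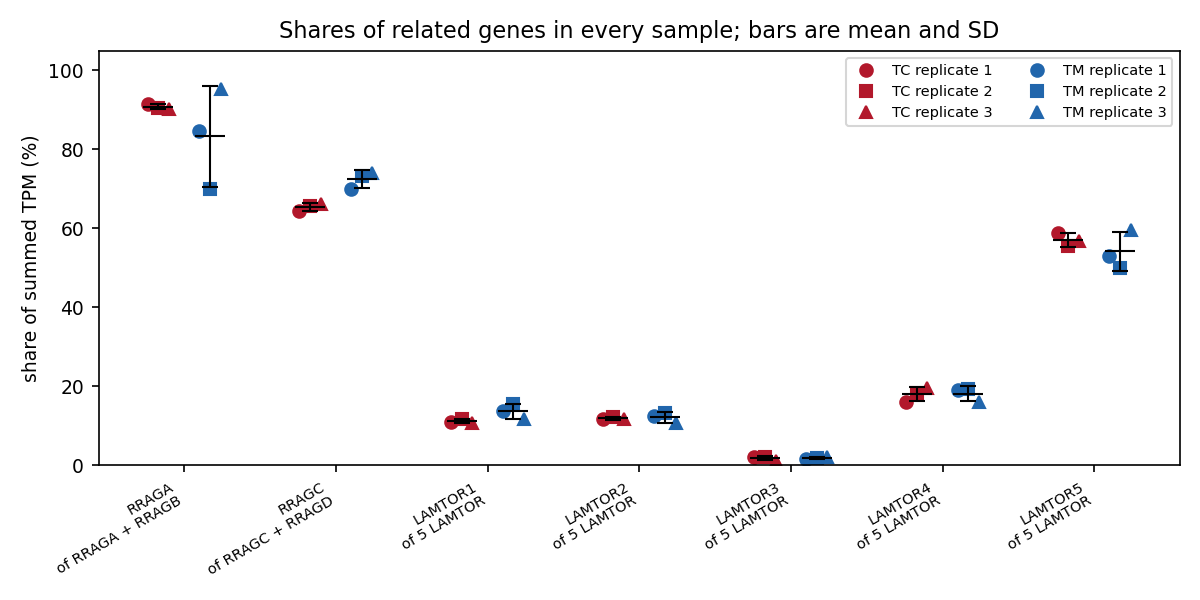
Share of summed TPM, in percent, for RRAGA among RRAGA and RRAGB, RRAGC among RRAGC and RRAGD, and each LAMTOR gene among the 5, with points for the samples and black bars for mean and SD of 3. RRAGC lies between 64.5% and 66.3% in TC and between 69.9% and 74.1% in TM, and LAMTOR1 at or below 11.7% in TC and at or above 11.8% in TM.

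Of the 5 Ragulator genes, 4 had a higher TC mean (33.0% of all tested genes did) and 0 passed an unadjusted p of 0.05, with a median log2 difference of 0.20. After median-of-ratios rescaling all 5 had a higher TC mean, against 52.7% of all genes. The median was then 0.38, and LAMTOR2 (0.37, limma adjusted p = 0.358) and LAMTOR5 (0.47, limma adjusted p = 0.356) passed the unadjusted threshold that 5.76% of all genes passed upward. Transcript length moves with these differences across the whole table. In 5 length classes of all genes, the median difference went from -0.099 in the shortest class to -0.17 in the longest, and the percentage with a higher TC mean from 39.8% to 26.4%. LAMTOR2 and LAMTOR4, with median annotated transcripts of 605 and 584.5 bases, fall in the shortest class. With the length and GC trend removed, their differences were 0.30 (limma adjusted p = 0.309) and 0.32 (limma adjusted p = 0.335), both past the unadjusted threshold, as were 2.04% of all genes upward. Of the 19 settings, LAMTOR2, LAMTOR4 and LAMTOR5 each passed that threshold in 2, and LAMTOR1 and LAMTOR3 in 0.

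**Figure D3:**
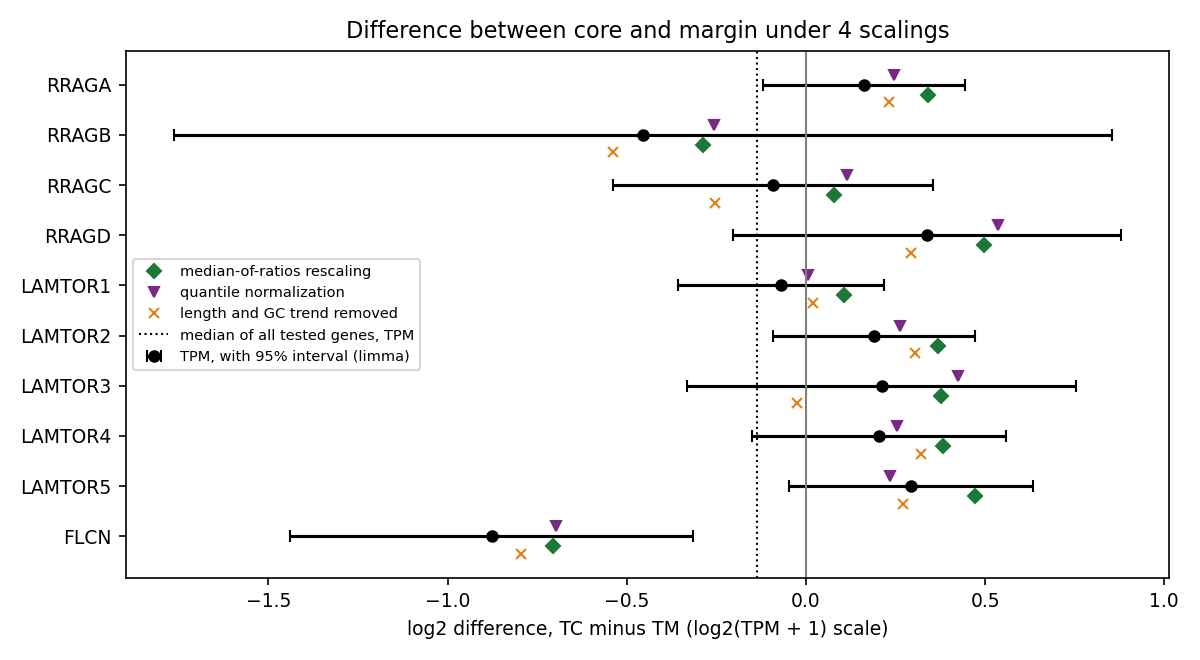
Log2 difference, TC minus TM, for each gene on the log2(TPM + 1) scale, with the 95% limma interval as a bar, and the same difference under 3 other scalings as colored markers. Only the interval of FLCN (-1.44 to -0.31) leaves out 0, and the median-of-ratios and quantile values of RRAGC and LAMTOR1 fall on the other side of 0 from their TPM values.

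The level of Ragulator relative to the Rag genes and FLCN was compared within each sample, as the mean log2(TPM + 1) of the 5 LAMTOR genes minus that of the 4 Rag genes and FLCN. The TC samples gave 2.20, 2.42 and 2.49, and the TM samples 1.97, 1.76 and 2.34. TM replicate 3 lay inside the TC range and the other two margin samples below it. The means were 2.37 ± 0.15 in TC and 2.02 ± 0.29 in TM (SD, n = 3 each), a difference of 0.35 that is slightly above the larger SD and was not tested. Leaving out TM replicate 2 reduced it to 0.22, leaving out TM replicate 3 raised it to 0.51, and setting aside both TM replicates 1 and 2 left 0.036. Without FLCN it was 0.18, and without RRAGB it was 0.28, with a TM SD of 0.023 in place of 0.29. Taken alone, the Ragulator mean came to 6.64 ± 0.089 (TC) and 6.48 ± 0.064 (TM), and the Rag mean to 4.38 ± 0.11 (TC) and 4.39 ± 0.40 (TM).

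Of the contrasts computed between members, Ragulator minus FLCN had the smallest spread over the 3 TC samples. The other contrasts had TC SDs from 0.041 to 0.20, and no test was made. The mean log2 value of the 5 LAMTOR genes exceeded that of FLCN by 2.83, 2.82 and 2.82 in the TC samples (SD 0.0064) and by 1.89, 2.13 and 1.32 in the TM samples (SD 0.41). The Rag mean exceeded FLCN by 0.78, 0.50 and 0.41 in TC, and by -0.10, 0.47 and -1.26 in TM, where FLCN was above the Rag mean in replicates 1 and 3. As summed TPM, the 5 LAMTOR genes were 5.74, 6.13 and 7.38 times the 4 Rag genes in TC and 5.78, 4.66 and 6.64 times in TM, ranges that overlap. The 3 genes nearest in profile to the LAMTOR mean (its own root mean square 0.10) were UBXN6 at 0.015, RPS10, a protein of the small ribosomal subunit, at 0.033, and KCTD11 at 0.034.

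**Figure D4:**
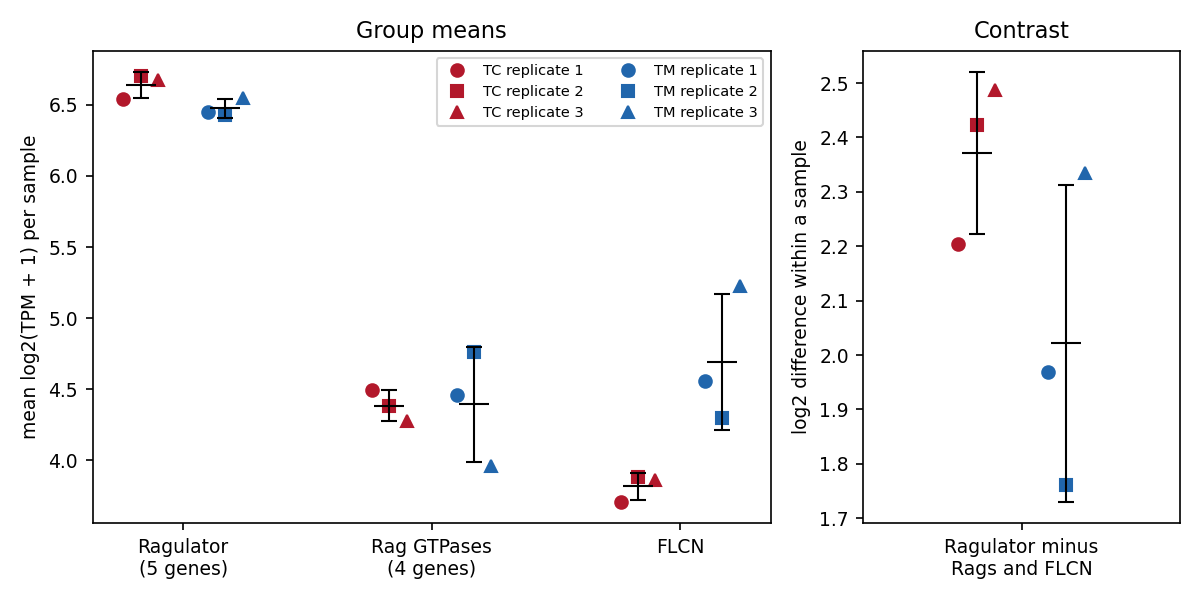
Left, mean log2(TPM + 1) per sample of the 5 Ragulator genes, the 4 Rag genes and FLCN; right, the within-sample difference between Ragulator and the Rags with FLCN, each with mean and SD of 3 in black. The contrast is 2.20 to 2.49 in TC and 1.76 to 2.34 in TM, with TM replicate 3 inside the TC range.

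The wider pathway was described with a list of 36 genes, of which 35 were tested; DEPTOR, an inhibitory partner of mTOR, lay at 0.51 to 1.64 TPM and was below the filter. None passed the adjusted threshold (0 of 35 by limma), 5 had an unadjusted p under 0.05 and all 5 were lower in TC, against 14.2% of all genes. The list had 12 higher and 23 lower means (33.0% of all tested genes were higher) with a median of -0.11, near the all-gene median of -0.14. After median-of-ratios rescaling, 19 were higher (52.7% of all genes were), 5 of them with an unadjusted p under 0.05 (5.76% of all genes upward), and 2 were lower by that rule (7.65% of all genes).

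The genes with lower TC values at an unadjusted p under 0.05 were subunits and regulators of mTORC1 and 1 of its substrates. RPTOR, which encodes the RAPTOR subunit that binds the Rag dimer, was measured at 11.22, 13.01 and 11.60 TPM in TC and at 16.55, 16.68 and 23.18 TPM in TM (log2 difference -0.60, limma adjusted p = 0.181). ULK1, the autophagy kinase that mTORC1 phosphorylates, was measured at 10.48, 10.27 and 10.16 TPM in TC and at 16.77, 15.66 and 22.04 TPM in TM (log2 difference -0.75, limma adjusted p = 0.119). Both had every TC sample below every TM sample, a pattern of 8 of the 35 tested pathway genes and of 18.9% of all tested genes. As for FLCN, their highest value was in TM replicate 3. TSC1 and TSC2, the subunits of the complex that turns RHEB off, had differences of -0.84 and -0.57, and AKT1S1, which encodes the inhibitory subunit PRAS40, had -0.38 (limma adjusted p of 0.141, 0.191 and 0.261). ULK1 (-0.58) and TSC1 (-0.68) stayed under the unadjusted threshold after median-of-ratios rescaling, while RPTOR (-0.43), TSC2 (-0.39) and AKT1S1 (-0.20) did not.

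RHEB, the activator on the lysosome, differed in the other direction. It was measured at 157.79, 131.26 and 155.47 TPM in TC and at 120.39, 137.41 and 97.85 TPM in TM, with TM replicate 2 inside the TC range (log2 difference 0.33, SE 0.16, limma adjusted p = 0.359) and a difference of 0.51 after rescaling. MTOR and MLST8 had differences of -0.39 and -0.14, and SLC38A9, the lysosomal arginine sensor that contacts Ragulator, had -0.32 with overlapping groups. BORC is a complex that shares BLOC1S1, BLOC1S2 and SNAPIN with another trafficking complex and is bound by Ragulator. It had 5 of 8 higher means (33.0% of all tested genes were higher) and a median of 0.11. After median-of-ratios rescaling, 7 of the 8 were higher, against 52.7% of all genes. On the TPM scale, the extremes of BORC were BORCS7 (0.40) and BORCS8 (-0.31). SNAPIN (0.32, limma adjusted p = 0.333) had every TC sample above every TM sample, as did 3.28% of all tested genes. KXD1 (-0.11, limma adjusted p = 0.714) had every TC sample below every TM sample, as did 18.9%.

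Downstream of folliculin, the transcription factors TFEB, TFE3 and MITF had differences of -0.33, -0.23 and -0.024, the last of which was 0.12 after rescaling. Of 7 genes known to respond to these factors, 5 had a higher mean in TC, against 33.0% of all tested genes. After median-of-ratios rescaling, 6 of the 7 were higher, against 52.7% of all genes. On the TPM scale, the 7 differences lay between UVRAG (-0.20) and SQSTM1 (0.24), and none passed an unadjusted p of 0.05. SQSTM1, the autophagy receptor p62, was measured at 478.22, 512.23 and 486.34 TPM in TC and at 362.24, 477.93 and 416.28 TPM in TM, with TC replicate 1 only just above TM replicate 2. Among the substrates of mTORC1, EIF4EBP1, EIF4EBP2 and RPS6KB1 had differences from -0.32 to -0.25 with overlapping groups. YY1, a transcription factor that the study also examined, had -0.058 on the TPM scale and 0.12 after rescaling.

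**Figure D5:**
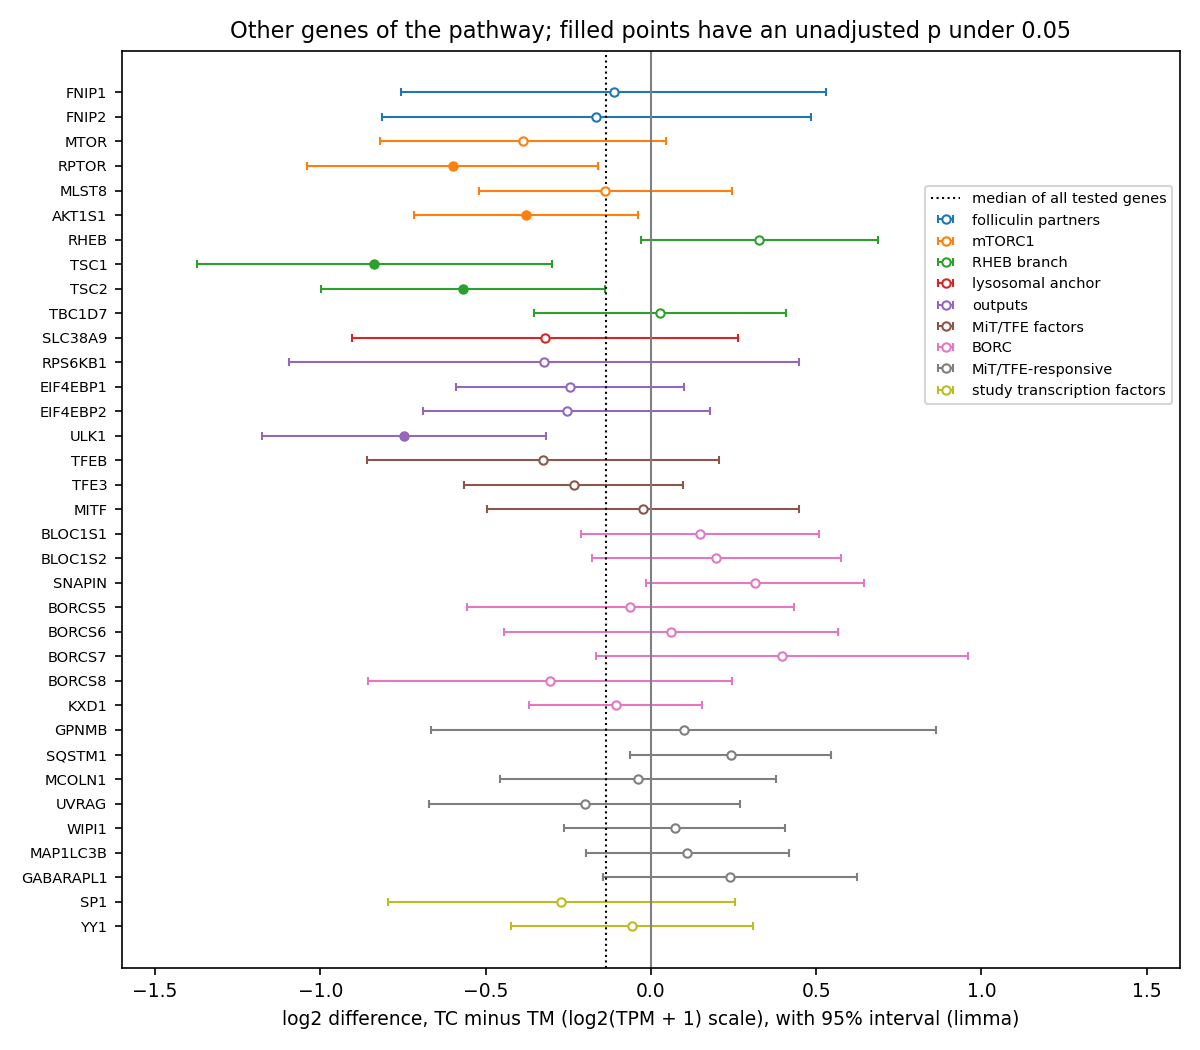
Log2 difference, TC minus TM, with the 95% limma interval, for the 35 tested genes of the wider pathway, colored by role, with filled points for an unadjusted p under 0.05 and a dotted line at the median of all tested genes (-0.14). The 5 filled points, RPTOR, AKT1S1, TSC1, TSC2 and ULK1, all lie below 0, and RHEB is at 0.33.

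Copies and neighboring genes could share reads with some members. Processed copies of LAMTOR3 (LAMTOR3P1 and LAMTOR3P2), LAMTOR5 (LAMTOR5P1) and RRAGA (RRAGAP1) were listed at 0 in all 6 samples. Reads that fit both a copy and its parent gene cannot be told apart here, so these 3 members are uncertain to that extent. Identical runs reached 47 bases between LAMTOR5 and LAMTOR5P1, 42 between LAMTOR3 and LAMTOR3P2 and 35 between LAMTOR3 and LAMTOR3P1, each shorter than the 150-base reads. No such run was computed for RRAGA and RRAGAP1. LAMTOR5-AS1, which neighbors LAMTOR5, ranged from 0.71 to 1.66 TPM, and RRAGC-DT, which neighbors RRAGC, from 0 to 0.87 TPM. Whether counting used the strand of the reads is not given in the sources used here, which also bears on TMEM147-AS1.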

How the data were processed

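RNA-seq was available for 3 TC and 3 TM samples, grouped by their titles. The authors deposited one matrix of TPM per gene; per the study's methods, SeqPrep and Sickle trimmed the paired 150-base reads, HISAT2 aligned them in orientation mode, StringTie assembled them and RSEM quantified genes, and the submitters' processing notes name hg38. No step that separates mouse from human reads was described. Tool versions were not given in the sources used here. Symbols, positions and transcript lengths came from GENCODE release 29 (GRCh38) and the gene name table, and promoters from RefSeq GRCh38.p14.

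The 13861 genes that reached 1 TPM in 3 or more of the 6 samples were fitted as log2(TPM + 1) with limma 3.58.1 in R 4.3.3 (TC against TM, mean-variance trend, Benjamini-Hochberg adjustment over all tested genes, threshold 0.05). The fit was tested on simulated data. Contrasts and shares were described without a test. Alternatives were pseudocount, filters, quantile normalization, median-of-ratios rescaling, removal of mitochondrially encoded genes, removal of a spline trend over length and GC (13772 genes), a block for the replicate number, other variance settings, inclusion of loci outside the annotation, and leaving out each sample; TM replicates 1 and 2 were left out together after the data had been seen. The study gives 3 mice per group; whether a core and a margin with the same number share a mouse is not stated, so they were not treated as pairs. Named genes were all members, the pathway genes with an unadjusted p under 0.05, the extremes of each pathway group and the 3 nearest profiles. TFE3, SNAPIN, KXD1, MTOR, DEPTOR, EIF4EBP2 and RPS6KB1 were added after their values were seen. The members and gene lists were chosen with earlier results of these data known.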

Additional observations from a re-analysis of the deposited data

How the results depend on the processing

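Of the 18 alternatives, 17 left the number of members passing the adjusted threshold at 0; with TM replicates 1 and 2 left out, an alternative chosen after seeing the data in which the 1 remaining margin sample is assumed to vary like the core samples, it was 1 (FLCN). The number of genes passing over the whole table was unstable: 19 as reported, 7 with a pseudocount of 0.1, 1 with no filter on low values, 4 with quantile normalization, 6 with median-of-ratios rescaling, 9 with the length and GC trend removed, 12 with no mean-variance trend, 47 with robust moderation, 195 with TM replicates 1 and 2 left out, and 1 to 17 when 1 sample was left out. With the replicate number as a block, 1 gene passed; the deviations of same-numbered samples correlated at 0.21, -0.12 and -0.16, and TC replicate 2 and TC replicate 3 correlated best with another number. These weak correlations do not settle whether such samples share a mouse. The block changed no call among the members. Leaving out 1 sample kept the members called at 0 and moved the contrast between Ragulator and the Rags with FLCN from 0.22 to 0.51; it was 0.036 with TM replicates 1 and 2 left out. The cause of these shifts was not tested.

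Signs turned as follows. With quantile normalization, differences became 0.12 for RRAGC, 0.0069 for LAMTOR1, 0.059 for FNIP1, 0.018 for FNIP2, 0.00013 for MLST8, 0.16 for MITF and 0.12 for YY1. With median-of-ratios rescaling they became 0.079 for RRAGC, 0.11 for LAMTOR1, 0.031 for FNIP1, 0.039 for MLST8, 0.12 for MITF and 0.12 for YY1. With the trend removed they became 0.019 for LAMTOR1 and -0.026 for LAMTOR3. With TM replicates 1 and 2 left out they became 0.96 for RRAGB, 0.079 for RRAGC, 0.017 for LAMTOR1, -0.11 for LAMTOR3, 0.25 for FNIP1, 0.016 for FNIP2, 0.055 for MLST8 and 0.17 for YY1, and the differences of shares, in percentage points, became -4.60 for RRAGA, 1.29 for LAMTOR2, -0.22 for LAMTOR3, 2.01 for LAMTOR4 and -2.47 for LAMTOR5. Leaving out 1 sample gave ranges that cross 0 for RRAGB (-1.16 to 0.18), RRAGC (-0.25 to 0.0080), LAMTOR1 (-0.11 to 0.00093), FNIP1 (-0.32 to 0.048), FNIP2 (-0.34 to 0.016), MITF (-0.055 to 0.011) and YY1 (-0.17 to 0.0026), and for the shares of LAMTOR2 (-1.02 to 0.30), LAMTOR3 (-0.096 to 0.36) and LAMTOR4 (-1.22 to 0.82). TPM holds no read counts, so the precision of the low genes, such as RRAGD, is unknown.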
